A study of Mus musculus with 2 samples.

Results

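The mesenchymal transcription factors Prrx1, Prrx2, Twist1, Twist2, Msx1, Msx2, Snai1, Snai2, Zeb1 and Zeb2 were followed in costal-cartilage-derived stem cells (CDSCs), freshly isolated or cultured. They were chosen by gene symbol as 5 paralogue pairs, 10 of the 21849 genes in the count tables. The rule of choice uses no measured value, but the set and the gene lists below were chosen with earlier results of these data known. Their counts and medians beside those of all genes are therefore descriptions only. The data were 2 single-cell libraries, 1 of primary CDSCs and 1 of cultured CDSCs at passages 2 to 3. The study's methods name both the MobiDrop platform and the Chromium 3′ v3.1 kit, without saying how the 2 relate. Such 3′ libraries count unique molecular identifiers (UMIs) near the poly(A) end of each transcript. Per the study's methods, CDSCs were the CD45-CD51+ cells sorted from the rib cartilage of newborn CD45.1 or ZsGreen C57BL/6J mice, and the cultured cells were the same kind of sorted cells grown in serum-containing minimum essential medium. The number of animals behind each library was not stated. With 1 library per group there was no replicate and no test. Each interval below is a 95% interval that covers counting error only.

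After cells with fewer than 500 genes, fewer than 1000 UMIs or more than 10% mitochondrial UMIs were left out, 11746 primary and 5338 cultured cells remained. Summed depth was 137148874 and 330129909 UMIs, so that 3 counts, taken as the floor, stood for 0.0219 and 0.00909 CPM (counts scaled to a total of 1000000 UMIs per library). Median depth per cell was 10026.5 UMIs in primary cells and 56864.5 after culture. The labels call the tissue bone marrow. The cartilage markers Col2a1 and Acan, which encode type II collagen and aggrecan, stood at 53268 and 1954 CPM in the primary library and at 489.8 and 2.51 CPM in the cultured library, so only the primary cells carried cartilage markers at a high level. The ZsGreen transcript had 60957 counts in primary cells and 0 after culture, and the Y-linked gene Uty had 11 and 20195 counts. The donors of the libraries thus differed in reporter and in sex-linked transcripts, and donor and culture cannot be told apart in any difference below. The libraries shared 32 barcodes, 15 of them among the kept cells.

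Prrx and Msx proteins bind DNA through a homeodomain and mark the mesenchyme of limb buds and face in the embryo. Twist proteins are basic helix-loop-helix (bHLH) factors that pair with E proteins, while Snai and Zeb proteins are zinc finger repressors that silence epithelial genes during the change of epithelial cells into mesenchymal cells. In skeletal tissue these families are best known from progenitors that have not yet become cartilage or bone, and Msx and Twist genes also act in the growing skull.

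Promoters are shown for the Prrx pair, which differed most as a pair in the same direction between libraries, and for Snai1 and Msx1, the members with the lowest ratios. RefSeq promoters on GRCm38.p6 were found for 8 of the 10 members, 11 promoters in all, with none for Snai2 and Zeb1. Only the 250 bases before each start are printed, 5′ to 3′ on the strand of the gene. The window of Prrx1 lies at chr1:163313651-163313900 on the minus strand, Prrx2 at chr2:30845117-30845366 on the plus strand, Snai1 at chr2:167537945-167538194 on the plus strand and Msx1 at chr5:37824586-37824835 on the minus strand. Capitals mark 2 motifs that were searched on both strands, the E-box CAGGTG, which reads as CACCTG on the other strand and is a site that Snai and Zeb zinc fingers can bind, and the palindrome TAATTA, a core that many homeodomains can bind.
Prrx1: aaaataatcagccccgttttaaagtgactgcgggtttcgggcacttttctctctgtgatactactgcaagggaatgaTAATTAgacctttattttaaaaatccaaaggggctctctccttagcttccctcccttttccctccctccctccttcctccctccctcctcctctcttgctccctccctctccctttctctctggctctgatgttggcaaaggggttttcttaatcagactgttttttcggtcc
Prrx2: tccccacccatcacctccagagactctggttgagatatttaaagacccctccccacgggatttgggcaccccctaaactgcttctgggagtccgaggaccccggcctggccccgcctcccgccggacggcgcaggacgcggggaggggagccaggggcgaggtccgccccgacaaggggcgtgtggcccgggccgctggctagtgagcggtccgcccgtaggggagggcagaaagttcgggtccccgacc
Snai1: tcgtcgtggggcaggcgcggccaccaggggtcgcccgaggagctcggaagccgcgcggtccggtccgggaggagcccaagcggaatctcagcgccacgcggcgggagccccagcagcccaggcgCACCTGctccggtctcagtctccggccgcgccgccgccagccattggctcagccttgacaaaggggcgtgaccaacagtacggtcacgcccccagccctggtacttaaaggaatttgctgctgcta
Msx1: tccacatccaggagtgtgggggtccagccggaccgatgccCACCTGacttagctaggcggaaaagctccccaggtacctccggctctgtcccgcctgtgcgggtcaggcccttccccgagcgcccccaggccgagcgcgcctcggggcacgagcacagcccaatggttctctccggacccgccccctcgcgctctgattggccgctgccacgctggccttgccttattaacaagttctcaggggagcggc
The E-box was found in the promoters of Snai1, 126 bases before the start, and Msx1, 210 bases before it, and in no other member promoter. It occurs in 5657 of 32851 RefSeq promoters of this length (17.2%). TAATTA was found in the promoters of Prrx1, 173 bases before the start, and Msx2, 187 bases before it, against 1590 of all promoters (4.84%). The Prrx2 promoter holds neither motif. These matches are descriptions of letters in a window and no binding was measured here.

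All 10 factors reached 1 CPM in at least 1 library, and together they made up 325.3 CPM of the primary and 1320 CPM of the cultured library. Of 12839 genes that reached 1 CPM in one library or the other, 12.6% stood at least 4-fold higher in cultured CDSCs, as did 5 of the 10 factors, namely Prrx1, Prrx2, Twist1, Twist2 and Zeb2. At least 4-fold lower were 7.48% of all genes and 0 of the 10 factors. At a threshold of 2-fold, 28.9% of all genes and the same 5 factors were higher, and 15.1% of all genes and 1 factor, Snai1, were lower. The median log2 ratio of cultured over primary CPM was 1.80 over the 10 factors and 0.36 over all genes tested, and 7 factors lay above 0 and 3 below, Snai2 among the latter by little. TMM scaling lowered the median of all genes to 0.16. Because capture near the poly(A) end differs between genes, levels of different genes are not ranked here.

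**Figure D1:**
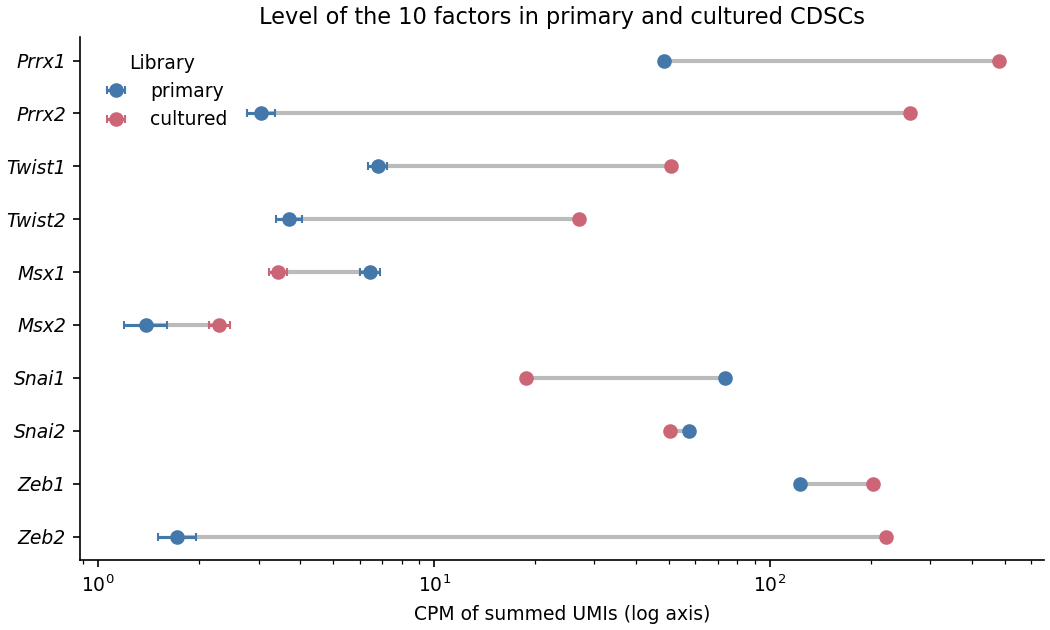
Level of the 10 factors, as CPM of summed UMIs on a log axis, in the primary (blue) and cultured (red) library, with exact 95% Poisson intervals for counting error. Prrx2 and Zeb2 span the widest gaps, from 3.06 to 260.7 and from 1.72 to 221.5 CPM, while Snai2 lies at 57.4 and 50.4 CPM and turns direction in 2 alternatives.

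The Prrx pair was higher in cultured cells. Prrx1, which keeps mesenchymal cells in an uncommitted state, lies on chr1:163245119-163313710 (minus strand, GRCm38) and stood at 48.5 CPM (47.3 to 49.7) in primary cells and 481.5 CPM (479.2 to 483.9) after culture. The level was 9.93-fold higher after culture, a log2 ratio of 3.31 (3.28 to 3.35). Its paralogue Prrx2, on chr2:30834972-30881251 (plus strand), had 420 counts or 3.06 CPM (2.78 to 3.37) in primary cells and 86080 counts or 260.7 CPM (259.0 to 262.5) in cultured cells. That is an 85.2-fold difference with a log2 ratio of 6.41 (6.27 to 6.55), and only 100 of the 12839 genes (0.779%) had a higher ratio. An annotated antisense gene, Gm20471, overlaps Prrx1, and whether counting used strand was not given in the sources used here.

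The Twist genes were both higher in cultured cells, by nearly the same factor. Twist1, a bHLH factor that holds back bone formation in the skull sutures, lies on chr12:33957671-33959829 (plus strand) and had 6.80 CPM (6.37 to 7.25) in primary cells and 50.9 CPM (50.1 to 51.7) after culture. The ratio was 7.48-fold, or 2.90 on the log2 scale (2.81 to 3.0). Twist2, its close relative in dermal and skeletal mesenchyme, lies on chr1:91801461-91848028 (plus strand) and had 3.70 CPM (3.39 to 4.04) against 27.0 CPM (26.4 to 27.6). Its ratio was 7.28-fold, a log2 ratio of 2.86 (2.74 to 3.0), so the intervals of the pair's ratios overlapped. Twist2 overlaps the annotated antisense gene Gm29100.

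The Zeb genes were unlike each other. Zeb1, a zinc finger and homeodomain repressor of epithelial genes, lies on chr18:5591860-5775467 (plus strand) and had 122.9 CPM (121.1 to 124.8) in primary cells and 202.9 CPM (201.4 to 204.5) after culture. Its log2 ratio of 0.72 (0.70 to 0.75) was exceeded by 4802 of the genes tested (37.4%). Zeb2, a relative that also has roles in neural crest and blood cells, lies on chr2:44983632-45117395 (minus strand) and had 236 counts or 1.72 CPM (1.51 to 1.96) against 73123 counts or 221.5 CPM (219.9 to 223.1). Cultured cells thus held 128.7 times as much, a log2 ratio of 7.01 (6.82 to 7.20), and only 71 genes tested (0.553%) had a higher ratio. The primary library therefore held UMIs almost wholly of Zeb1, and the cultured library held both. Zeb1 and Zeb2 overlap annotated genes on the opposite strand, Gm10125 and Zeb2os, and the count tables hold no row for Zeb2os.

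Among the Snai genes, Snai1 was lower and Snai2 close to level after culture. Snai1, the founding vertebrate Snail repressor and a strong repressor of E-cadherin, lies on chr2:167538195-167542814 (plus strand) and had 73.3 CPM (71.9 to 74.8) in primary cells and 18.8 CPM (18.3 to 19.3) after culture. It was 3.90-fold lower, a log2 ratio of -1.96 (-2.01 to -1.92), and 7.65% of the genes tested had a lower ratio. Under TMM scaling its log2 ratio was -2.16, past the 4-fold threshold. Snai2, known as Slug and active in migrating neural crest, lies on chr16:14705852-14709385 (plus strand) and had 57.4 CPM (56.2 to 58.7) against 50.4 CPM (49.7 to 51.2). Its log2 ratio of -0.19 (-0.23 to -0.15) was 0.05 when each cell weighed the same and 0.03 when cells were thinned to equal depth, so no direction is given for it.

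The Msx genes were scarce in both libraries and differed in opposite directions. Msx1, a homeodomain repressor of early facial and limb mesenchyme, lies on chr5:37820485-37824583 (minus strand) and had 6.44 CPM (6.02 to 6.88) in primary cells and 3.43 CPM (3.23 to 3.64) after culture. It was 1.88-fold lower, a log2 ratio of -0.91 (-1.04 to -0.78). Msx2, which acts in skull and tooth growth, lies on chr13:53466884-53473074 (minus strand) and had 1.39 CPM (1.20 to 1.60) against 2.30 CPM (2.14 to 2.47). Its log2 ratio of 0.73 (0.50 to 0.97) had the widest interval of the 10 factors, and rested on 190 and 758 counts.

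The share that the second gene took of each pair's UMIs showed which pairs kept their makeup. Twist2 made up 35.3% (32.8 to 37.8) of Twist UMIs in primary cells and 34.7% (34.1 to 35.2) in cultured cells, and these intervals overlapped. Prrx2 made up 5.94% (5.40 to 6.52) against 35.1% (34.9 to 35.3), Msx2 17.7% (15.5 to 20.1) against 40.1% (37.9 to 42.4) and Snai2 43.9% (43.2 to 44.7) against 72.8% (72.3 to 73.4). Zeb2 had the widest difference, with 1.38% (1.21 to 1.57) of Zeb UMIs in primary and 52.2% (51.9 to 52.4) in cultured cells. In 4 of the 5 pairs the second gene thus took a larger share after culture. Since capture differs between genes, such a share is no ratio of molecules and only its difference between libraries or clusters is read. Among clusters of at least 50 cells, the Zeb2 share ran up to 9.40% in the primary and from 40.7% to 66.0% in the cultured library, without overlap, and the Prrx2 share ran from 1.03% to 18.5% and from 29.5% to 42.1%, also without overlap.

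**Figure D2:**
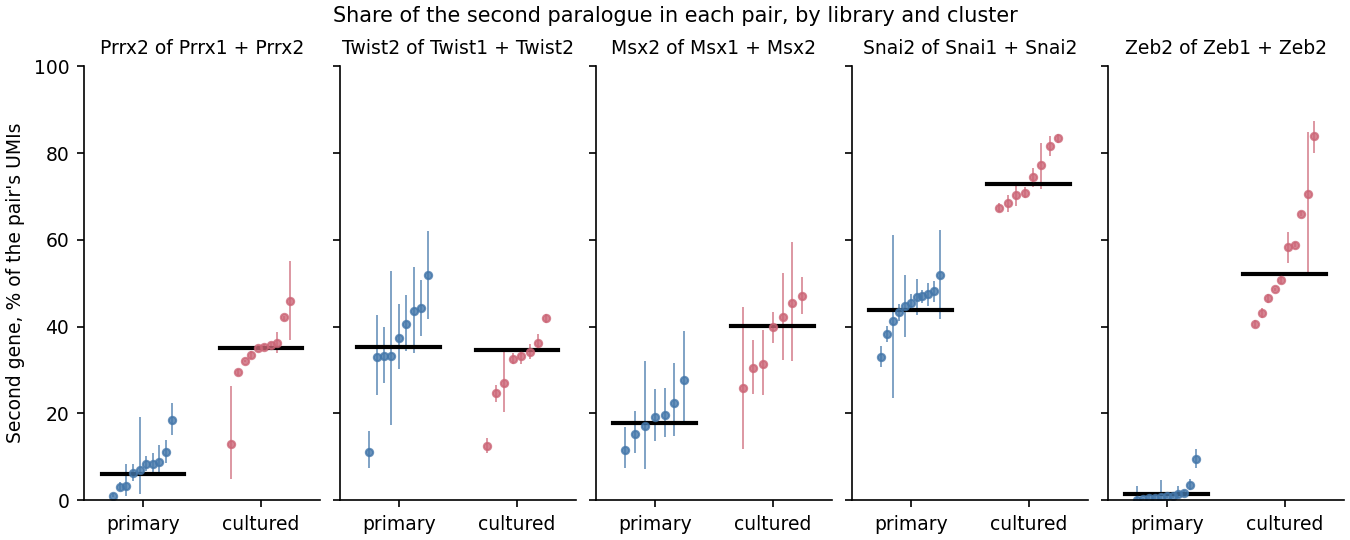
Share of each pair's UMIs taken by the second gene, in percent, with black bars for whole libraries and points for clusters with at least 20 UMIs of the pair, each with its exact 95% binomial interval. Twist2 bars sit at 35.3% and 34.7%, while the Zeb2 bars sit at 1.38% and 52.2%.

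To compare cells at equal depth, each of the 10959 primary and 4543 cultured cells with at least 5000 UMIs was thinned to 5000 UMIs. Another 787 primary and 795 cultured cells were shallower and left out here. Of primary cells 20.5% (19.7 to 21.2) had a Prrx1 UMI, and of cultured cells 83.1% (82.0 to 84.2). For Prrx2 these shares were 1.13% (0.942 to 1.35) and 65.1% (63.7 to 66.5). Without thinning they were 35.5% and 91.3% for Prrx1 and 3.0% and 85.9% for Prrx2. The higher level of both genes in culture was therefore spread over most cells and not held by a small group. Zeb2 likewise had a UMI in 0.602% (0.466 to 0.766) of thinned primary cells against 58.7% (57.3 to 60.2) after culture, or 1.28% and 85.5% without thinning.

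Counted in percentage points, the other factors had smaller differences in the share of cells with a UMI. Zeb1 was seen in 40.0% (39.1 to 40.9) and 56.1% (54.6 to 57.5) of thinned cells, or 60.2% and 84.9% unthinned. Twist1 was seen in 3.41% (3.08 to 3.77) and 20.8% (19.7 to 22.1), or 6.69% and 70.2% unthinned, and Twist2 in 1.79% (1.55 to 2.05) and 11.9% (11 to 12.9), or 3.74% and 53.1% unthinned. Snai1 and Msx1 had the lower share in culture. Snai1 was seen in 25.3% (24.5 to 26.1) and 8.87% (8.06 to 9.74) of thinned cells, whereas the unthinned shares of 41.2% and 51.9% ran against its CPM and are given no order. Snai2 had 20.9% (20.1 to 21.7) and 21.1% (19.9 to 22.3), overlapping intervals, with 37.3% and 68.9% unthinned. Msx1 was seen in 3.11% (2.79 to 3.45) and 1.74% (1.38 to 2.16), or 6.45% and 15.6% unthinned, the latter again against its CPM, and Msx2 in 0.557% (0.426 to 0.714) and 0.991% (0.723 to 1.32), or 1.49% and 11.4% unthinned.

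Cells of other types gave a rough background for these shares. The primary library held 25 endothelial-like cells with a median of 10273 UMIs, 17 of them deep enough to be thinned. Of these 17 cells, 2 (11.8%, 1.46 to 36.4) had a Prrx1 UMI, 1 each (5.88%, 0.149 to 28.7) had Twist1 and Msx1, 4 each (23.5%, 6.81 to 49.9) had Snai1 and Snai2, and 0 had Prrx2, Twist2, Msx2 or Zeb2. The primary share of each factor except Zeb1 lay inside the wide interval of these cells, so at this number of cells it could not be set apart from background. Even 0 of 17 cells has an upper limit of 19.5%, so a primary share below that could not have stood above background. Zeb1 was higher in the endothelial-like cells, in 12 of 17 (70.6%, 44.0 to 89.7) and at 412.8 CPM (341.7 to 494.3).

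The cultured library held 15 haematopoietic-like cells with a median of 22917 UMIs, 11 of them thinned. Prrx1 and Prrx2 had a UMI in 3 of these 11 cells each (27.3%, 6.02 to 61.0), below the share in all cultured cells, at 145.0 CPM (112.2 to 184.5) and 123.0 CPM (93.0 to 159.8). Zeb2, known in macrophages, was seen in 10 of 11 (90.9%, 58.7 to 99.8), at 747.0 CPM (669.7 to 830.8). These 15 cells held 340 of the 73123 Zeb2 counts of the library. Twist2, Msx1, Msx2 and Snai1 had 0 of 11 thinned cells with a UMI (up to 28.5%). At this number of cells a share below 28.5% in all cultured cells could not have stood above the upper limit. Only the shares of Prrx1 and Prrx2 in all cultured cells lay above the upper limit in the haematopoietic-like cells, whereas by CPM Prrx1, Prrx2, Twist1, Twist2, Snai1, Snai2 and Zeb1 all did.

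Counted together, primary cells carried few of the factors at once. The median thinned primary cell had a UMI of 1 factor, and 25.6% had none. The median cultured cell had 3, and 1.01% had none. At least 3 factors were seen in 8.40% (7.89 to 8.94) of primary cells, against 73.3% (72.0 to 74.6) after culture. The highest number in any cell was 5 in primary cells and 8 after culture.

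**Figure D3:**
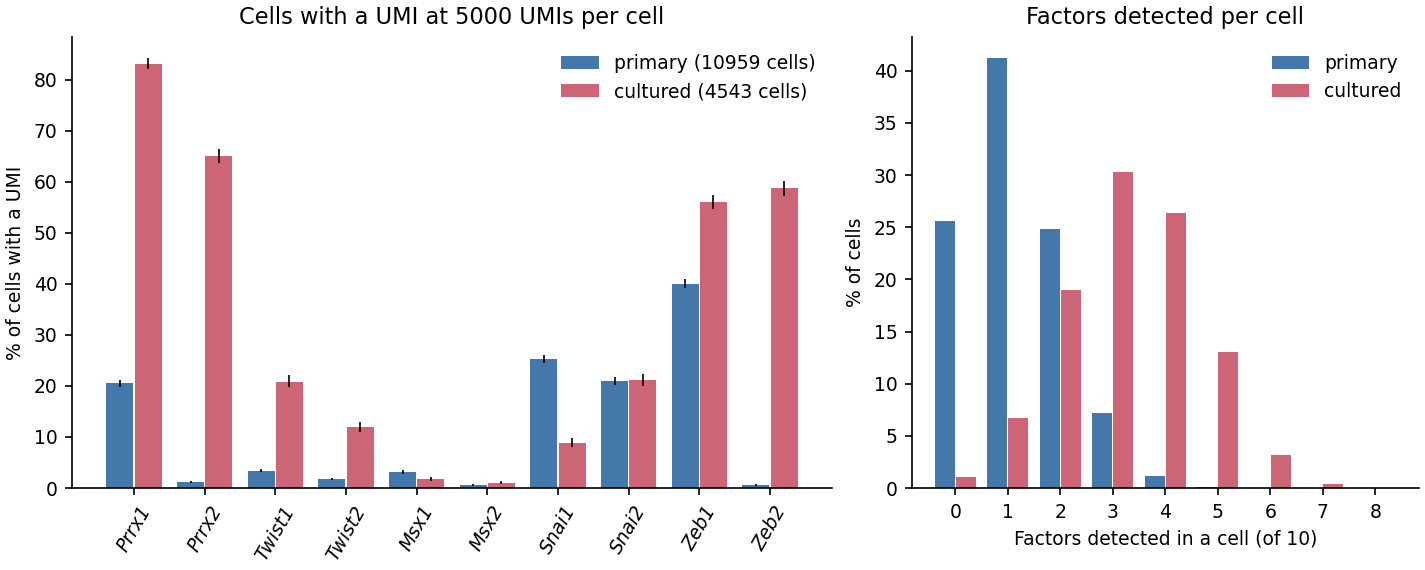
Left, percent of cells with a UMI of each factor after thinning every cell to 5000 UMIs, with exact 95% binomial intervals, in 10959 primary and 4543 cultured cells. Right, percent of the same cells by number of factors with a UMI, where the primary median is 1 and the cultured median is 3.

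Each library was clustered alone, with the 10 factors left out of the genes used. The primary library gave 11 clusters, of which 9 were chondrocyte-like, since each held at least 11 cartilage markers above 1000 CPM, 1 was the endothelial-like cluster and 1, led by Thbs4, Rgs5, Chodl and Col1a1, mixed fibroblast, tendon and pericyte markers and was left unnamed. The mixed and the endothelial-like cluster also held 9 and 8 cartilage markers above 1000 CPM, and the part of free RNA in them was not tested. That mixed cluster of 263 cells (2.24% of the library) had the highest level of 6 factors among clusters of at least 50 cells. Prrx1 reached 243.1 CPM (223.5 to 264.1) there, against 19.8 CPM (17.8 to 21.9) in the cluster led by Acta1, Aoc2, Grem1 and Acta2, the lowest. Twist1 reached 86.2 CPM (74.7 to 99.0), against at most 6.79 CPM in the other clusters of that size, so that the 263 cells held 200 of the 933 Twist1 counts of the library (21.4%). Prrx2 reached 22.4 CPM (16.7 to 29.4), Twist2 10.8 CPM, Zeb1 286.7 CPM (265.3 to 309.3) and Zeb2 29.8 CPM (23.1 to 37.6).

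Divided further, with settings chosen after its values were seen, the mixed cluster was uneven for the factors. In a fibroblast-like group of 73 cells led by Adamtsl1, Col1a1 and Kera, Prrx1 had 465.3 CPM (404.2 to 533.0), Twist1 158.8 CPM (124.0 to 200.3) and Zeb2 8.95 CPM (2.44 to 22.9). In 46 unnamed cells led by Chodl and Cilp, Twist1 had 204.4 CPM (146.1 to 278.4), Prrx2 81.8 CPM (46.7 to 132.8) and Zeb2 51.1 CPM (24.5 to 94.0). Prrx1 and Twist1 were thus high in some cells rich in type I collagen and tendon genes, but not evenly so. In 40 fibroblast-like cells led by Kera and Col1a1 they had 327.8 and 141.3 CPM. They had 172.1 CPM (142.1 to 206.5) and 37.4 CPM (24.2 to 55.2) in 35 fibroblast-like cells led by Lgr5 and Abi3bp. In 22 fibroblast-like cells led by Lama3 and Igfbp3 they had 117.1 CPM (82.05 to 162.2) and 39.05 CPM (20.2 to 68.2). Zeb2 had 114.4 CPM (84.3 to 151.6) in 28 cells that were smooth muscle and pericyte-like, with Rgs5, Abcc9, Ebf2 and Notch3 as leading genes, which were 0.238% of the kept primary cells and held 48 of the 236 Zeb2 counts (20.3%). The Zeb2 intervals of these 28 and the 46 cells overlapped. Prrx1 and Twist1 were also present in the 28 cells, at 128.6 CPM (96.7 to 167.9) and 45.3 CPM (27.3 to 70.7), above their level in each chondrocyte-like cluster. For Prrx1 the interval overlapped that of the chondrocyte-like cluster led by Tll1, Clu and Ppargc1a, at 96.3 CPM (92.0 to 100.7). The 28 cells carried 10 cartilage markers above 1000 CPM, and the part of mixed droplets in their profile was not tested.

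Among the chondrocyte-like clusters the Snai genes were highest where Prrx1 was lowest, and lowest where Prrx1 was highest. At resolution 1.0 the lowest Prrx1 level, 17.4 CPM, lay in a cluster led by Hmox1 and Phlda1 and not in the one highest for the Snai genes. Snai1 and Snai2 were highest in the cluster of 1279 cells led by Acta1 and Grem1, at 131.0 CPM (125.9 to 136.3) and 116.0 CPM (111.2 to 121.0). Both were lowest in the cluster of 2312 cells led by Tll1, Clu and Ppargc1a, which also expressed the joint lubricant gene Prg4, at 36.8 CPM (34.2 to 39.5) and 33.2 CPM (30.7 to 35.8). In that cluster Prrx1 had 96.3 CPM (92.0 to 100.7) and Zeb1 191.3 CPM (185.2 to 197.4), the highest among the chondrocyte-like clusters. Zeb1 was not lowest where the Snai genes were highest, with 105.4 CPM (100.8 to 110.1) there and 81.2 CPM in the cluster led by Trf and Fam43a. Median depth was 13362 UMIs per cell in the cluster led by Acta1 and 7553.5 in the cluster led by Tll1. Msx1 ranged from 1.48 CPM (0.827 to 2.44) in the cluster of 792 cells led by Slc35f1, Runx3 and Wnt5b to 9.79 CPM (6.78 to 13.7) in the 189 dividing cells led by Pbk and Cenpf. At resolution 1.0 its highest level was 15.8 CPM, in the cluster led by Hmox1 and Phlda1. Msx2 stayed at or below 2.01 CPM in all primary clusters of at least 50 cells.

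**Figure D4:**
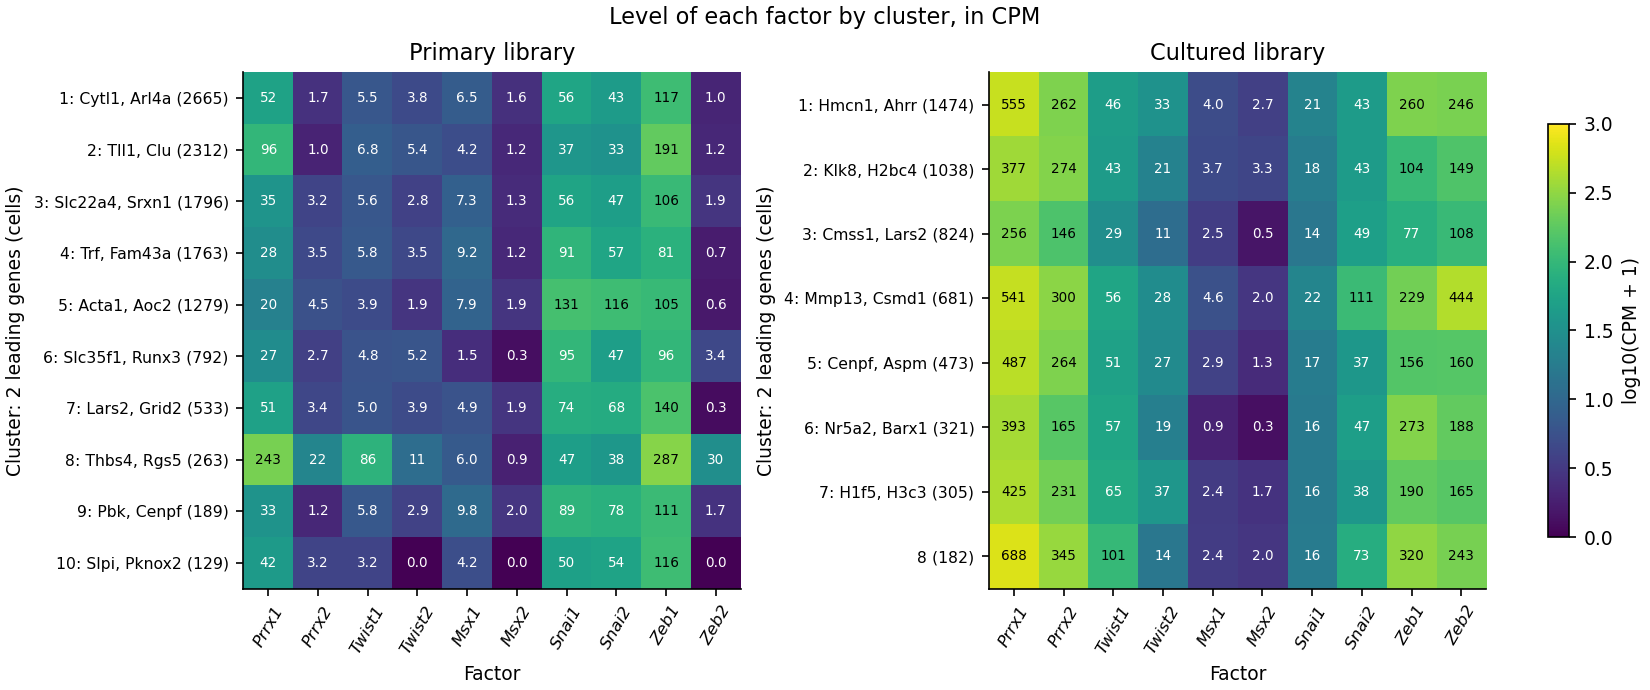
Level of each factor in CPM, printed in each cell and coloured as log10(CPM + 1), in clusters of at least 50 cells of the primary (left) and cultured (right) library, with the number of cells beside each row and the 2 leading genes beside all rows but 1. The primary row led by Thbs4 and Rgs5 stands out for Prrx1 (243.1), Twist1 (86.2), Zeb1 (286.7) and Zeb2 (29.8).

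The cultured library gave 10 clusters, of which only the 15 haematopoietic-like cells could be named. Among the 8 clusters of at least 50 cells, Prrx1 ranged from 255.8 to 687.7 CPM and Prrx2 from 145.9 to 345.4 CPM. For Prrx2 even the lowest cultured cluster lay above the highest primary cluster of that size. For Prrx1 the libraries were not set apart in this way. Its lowest cultured value lay inside the interval of the mixed primary cluster, at 243.1 CPM (223.5 to 264.1). At the finer resolution of 1.0 the lowest cultured value was 233.0 CPM, under those 243.1 CPM. The fibroblast-like primary group of 73 cells, from the further division, had 465.3 CPM (404.2 to 533.0), within the cultured range. Prrx1, Prrx2, Twist1 (100.8 CPM, 95.3 to 106.6) and Zeb1 (319.5 CPM) were highest in a cluster of 182 cells. Twist2 had 14.4 CPM (12.4 to 16.7) in those 182 cells, against its highest level of 36.9 CPM (34.6 to 39.4) in the S phase cluster led by histone genes. Twist2 was 12.5% (10.8 to 14.3) of Twist UMIs in that cluster of 182 cells, as it was 11.1% (7.32 to 16.0) in the mixed primary cluster, although the whole libraries had 34.7% and 35.3%. At resolution 1.0 a group of 52 cells led by Lars2 took the highest level of Prrx1 (772.5 CPM), Twist2 (78.4 CPM), Zeb1 (613.7 CPM) and Zeb2 (759.4 CPM). The same 52 cells had the lowest level of Prrx2 (130.1 CPM), Twist1 (13.1 CPM) and Snai2 (16.3 CPM) among clusters of at least 50 cells. The mitochondrial gene mt-Nd6 was among their leading genes, and the part of cell quality in these values was not tested.

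Zeb2 and Snai2 were both highest in the 681 cultured cells led by Mmp13, Csmd1, Pdzrn4 and Gdf10. Zeb2 had 444.2 CPM (437.1 to 451.3) there, and Snai2 111.0 CPM (107.4 to 114.6), while Zeb2 ranged from 107.7 to 245.8 CPM and Snai2 from 37.3 to 73.3 CPM in the other clusters of at least 50 cells. Snai1 ranged from 14.3 to 22.1 CPM. Msx1 and Msx2 were lowest in the 321 cells led by Nr5a2, Barx1 and Sfrp2, at 0.915 CPM (0.580 to 1.37) and 0.318 CPM (0.137 to 0.627). The lowest values of Prrx1, Prrx2, Twist1, Twist2, Snai1, Zeb1 and Zeb2 all fell in a cluster of 824 cells led by Cmss1 and Lars2. Its median was 1254 UMIs, and the part of cell quality in those values was not tested. At resolution 1.0 this did not hold for each factor. There the lowest Prrx1 (233.0 CPM), Zeb1 (66.6 CPM) and Zeb2 (96.7 CPM) lay in a cluster led by Ly6a and Ndufa4l2, with a median of 23878 UMIs. Snai1 was instead highest, at 26.3 CPM, in 656 cells led by Cmss1 and Lars2, with a median of 1176.5 UMIs.

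Detection in the same thinned primary cells followed the same division. Among the 517 primary cells with a UMI of Col1a1, the type I collagen gene of fibroblasts and bone, 39.3% (35.0 to 43.6) had Prrx1, 15.1% (12.1 to 18.5) had Twist1 and 54.4% (49.9 to 58.7) had Zeb1. Among the 10442 cells without Col1a1 these shares were 19.5% (18.8 to 20.3), 2.83% (2.52 to 3.17) and 39.3% (38.3 to 40.2). Snai1 had 23.0% (19.5 to 26.9) and 25.4% (24.6 to 26.3), and Snai2 17.2% (14.1 to 20.8) and 21.1% (20.3 to 21.9), so the Snai genes were no more frequent beside Col1a1. In cultured cells Prrx2 had a UMI in 78.5% (67.8 to 86.9) of the 79 cells with and 64.8% (63.4 to 66.2) of cells without Msx1. Other pairs differed less, for instance a Zeb2 UMI in 66.3% (63.2 to 69.3) of cells with and 56.7% (55.1 to 58.3) of cells without Snai2, and a Zeb1 UMI in 57.7% (56.1 to 59.2) of cells with and 48.2% (44.7 to 51.8) without Prrx1. Cells of 1 library share its reagents and are no replicates.

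For each factor with at least 10 CPM, the genes most like it over clusters were sought by Pearson r of log2(CPM + 1), over 10 primary clusters and 7671 genes or 8 cultured clusters and 8480 genes. In the primary library the closest gene was at r = 0.99 for Prrx1 (Ptprg, written PTPRG in the files, then Dock11 and Snrk), at r = 0.98 for Zeb1 (Sncaip, Pkd1 and Atg4a), at r = 0.95 for Snai1 (Cdc34, Thoc3 and Cox5a) and at r = 0.94 for Snai2 (Pim3, Map3k1 and Taf10). In the cultured library Snai2 was most like Lum (r = 0.97), which encodes lumican, followed by Lmo4 and Gdf10, and Prrx1 was most like Rai14 (r = 0.98), Ebf3 and Nfatc4. Zeb2 was most like Ppp3ca, Rbpms and D16Ertd472e, and Zeb1 like Ppme1, Micu3 and App, each at r = 0.99. With so few points and so many genes, values this high are a description of the ranking, and clusters of 1 library also share their depth.

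Family relatives gave a mixed picture. Of 21 listed homeodomain, Snail and bHLH relatives, 9 reached 1 CPM. Of these, 4 lay 4-fold or more above and 2 as far below the primary level, against 12.6% and 7.48% of all genes. Their median log2 ratio was 1.57 against 0.36 over all genes. Of the relatives with at least 10 CPM, Barx1, a homeobox gene of jaw and stomach mesenchyme, had 0.146 CPM in primary cells and 23.6 CPM after culture, a log2 ratio of 7.34. Scx, the tendon bHLH factor, had 24.8 and 73.8 CPM (1.57), and Alx1, a Prrx-related homeobox gene of the face, had 176.4 and 49.6 CPM (-1.83). The other 3 relatives past 4-fold higher, Shox2, Dlx1 and Dlx2, and the 2 past 4-fold lower, Lmx1b and Barx2, stayed under 5 CPM and are named after their values were seen.

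Partners of the Twist proteins and the Id proteins that block those partners lay on different sides of 0 in part. The 7 listed genes had a median log2 ratio of -0.88 against 0.36 over all genes. By 4-fold or more, 0 were higher and 1, Id4, was lower, against 12.6% and 7.48% of all genes. The Id genes encode helix-loop-helix proteins without a DNA-binding part, and all 4 lay below 0. Id1 had 1064 CPM in primary cells and 353.4 CPM after culture (-1.59), Id2 280.7 and 93.7 CPM (-1.58) and Id4 49.9 and 10.0 CPM (-2.31). Of the E proteins that pair with Twist, Tcf3 had 20.2 and 45.8 CPM (1.18), Tcf4 524.3 and 897.0 CPM (0.77) and Tcf12 a log2 ratio of -0.46.

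Corepressors and cofactors stayed close to the median of all genes. All 14 listed reached 10 CPM, with a median log2 ratio of 0.29 against 0.36. By 4-fold or more, 1 was higher and 0 lower, against 12.6% and 7.48% of all genes. That 1 gene was Ajuba, a LIM protein that links Snai proteins to their corepressors, at 5.19 CPM in primary cells and 32.4 CPM after culture (2.64). The homeodomain partner Meis2 had 183.5 and 382.5 CPM (1.06), and Rcor1, the CoREST scaffold, 43.7 and 84.2 CPM (0.95). Limd1, a LIM relative of Ajuba, had 60.8 and 48.9 CPM (-0.31), and the chromatin enzyme genes Kdm1a and Ezh2 had log2 ratios of 0.09 each.

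Genes tied to the mesenchymal transition ran both ways. Of 17 listed, all reached 10 CPM, 9 were higher and 3 lower by 4-fold or more, against 12.6% and 7.48% of all genes, with a median log2 ratio of 2.17 against 0.36. Lox, which cross-links collagen, had 17.3 CPM in primary cells and 1180 CPM after culture (6.09), the hyaluronan receptor gene Cd44 8.11 and 357.8 CPM (5.46) and the actin-binding gene Tagln 38.5 and 1282 CPM (5.06). Vim, the intermediate filament gene used as a mesenchymal marker, had 170.9 and 2656 CPM (3.96) and is named for its use as a marker, after its values were seen. Lower were Postn at 91.0 and 3.09 CPM (-4.88), Sparc at 46701 and 3144 CPM (-3.89) and Fap at 61.8 and 8.80 CPM (-2.81), of which the first encode matrix proteins and Fap a surface protease. Because Sparc alone weighed so much, the summed level of the list was 50991 CPM in primary cells and 12508 CPM after culture, against the sign of its median.

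Epithelial genes that Snai, Zeb and Twist factors repress were at very low levels in both libraries. Of 21 listed, 6 reached 1 CPM in either library and 0 reached 10 CPM, and their summed level was 11.5 CPM in primary cells and 5.56 CPM after culture. Of the 6, the keratin genes Krt18 and Krt19 were higher by 4-fold or more. Epcam, Cldn7, Dsp and Cgn were lower by as much, all 6 named after their values were seen. Among all genes tested, 12.6% were higher and 7.48% lower by 4-fold or more. The median log2 ratio of the 6 was -3.17. Cdh1, which encodes E-cadherin, had 94 counts in primary cells and 27 after culture, or 0.685 CPM (0.554 to 0.839) and 0.0818 CPM (0.0539 to 0.119).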

How the data were processed

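Single-cell RNA-seq was analysed from 1 primary and 1 cultured CDSC library, grouped by the treatment labels. Deposited were raw counts of UMIs for each gene in each barcode, which the authors made with Cell Ranger 7.0.0 on GRCm38 without normalisation. The annotation release and the strand and intron settings were not given in the sources used here. Barcodes below 500 genes, below 1000 UMIs or above 10% mitochondrial UMIs were dropped, which left out 150 of 11896 primary and 5460 of 10798 cultured barcodes. Total depth was 137148874 and 330129909 UMIs, so counting error was small except for scarce genes, while the spread between animals or preparations could not be measured. UMIs were summed per library and scaled to CPM. Counts under 3 were raised to 3 in log2 ratios, and genes needed at least 1 CPM in either library. Intervals at 95% are exact Poisson for levels, Clopper-Pearson for shares and conditional binomial for ratios. The ratio step was tested on simulated data. Cells were thinned to 5000 UMIs for shares.

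Each library was clustered in scanpy 1.11.5 with leidenalg 0.10.2 (2000 variable genes without the 10 factors, 10 principal components, 20 neighbours, resolution 0.5, Python 3.11.15, numpy 2.4.6, scipy 1.17.1). A cluster was called chondrocyte-like where at least 3 cartilage markers exceeded 1000 CPM and no other class led, and other names needed at least 3 markers at 4-fold over the other cells. No doublet caller was run, and as an alternative the 1132 primary and 933 cultured cells with the highest UMI counts, 0.8% per 1000 barcodes, were left out. Other alternatives were other cell filters, TMM scaling (edgeR 4.0.16 in R 4.3.3), other totals, equal weight of cells, thinning, other thresholds and other cluster settings. The members, gene lists and markers were chosen with earlier results of these data known. Named are all 10 factors, up to the 3 highest and up to the 3 lowest ratios of each list among genes with at least 10 CPM, the 3 genes most like each factor and the leading genes of clusters. Coordinates are from GENCODE M21 (GRCm38) by gene identifier, and promoters are from RefSeq. Some genes of the lists and of the cluster labels are not reported here.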

Additional observations from a re-analysis of the deposited data

How the results depend on the processing

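The count of 5 factors at least 4-fold higher in cultured cells was the same in all 12 alternatives tried. The count at least 4-fold lower was 0, and became 1 (Snai1) with TMM scaling, which removes a shift between libraries, and 1 (Snai1) with a 2-fold threshold. Under TMM scaling 10.6% of all genes were higher and 8.57% lower by 4-fold or more. Snai2 changed sign, from a log2 ratio of -0.19 to 0.05 with each cell weighing the same and 0.03 when thinned to 5000 UMIs, and the cause was not tested. The other 9 factors kept their sign in 9 of 9 alternatives. Zeb2 ran from 6.81 with TMM scaling to 7.49 when primary chondrocyte-like clusters were set against cultured cells of at least 5000 UMIs, which was added once the data had been seen, and Prrx2 from 6.21 to 6.66. Twist1 ran from 2.61 with each cell weighing the same to 3.23 in that same added alternative. With other cluster settings the mixed primary cluster kept the highest level of Prrx1, Prrx2, Twist1, Twist2, Zeb1 and Zeb2, while the cultured cluster with the highest level moved for several factors at resolution 1.0. Shares of cells moved with the depth they were thinned to, for instance Prrx1 from 20.5% of primary cells at 5000 UMIs to 9.54% at 2000 UMIs. No paired analysis was possible because the labels carry no replicate numbers and each group holds 1 library. Depth limits Msx2, and Zeb2 in primary cells.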

Other observations

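The barcodes that the filter left out also carried the factors. The 5460 cultured barcodes left out held 6298068 UMIs, with Prrx1 at 570.8 CPM (552.3 to 589.8), Prrx2 at 155.9 CPM (146.3 to 166.0), Zeb1 at 322.5 CPM (308.6 to 336.8) and Zeb2 at 310.7 CPM (297.1 to 324.8). Of these, the 131 barcodes with over 10% mitochondrial UMIs had Prrx1 at 723.3 CPM (687.3 to 760.8) and Zeb1 at 575.5 CPM (543.4 to 609.0), both above the kept cells, while Prrx2 had 87.4 CPM (75.1 to 101.0) and Twist1 14.4 CPM (9.72 to 20.6), both below them. In the primary library the 113 barcodes with over 10% mitochondrial UMIs had Zeb1 at 233.2 CPM (168.1 to 315.2), also above the kept cells, and Snai1 at 22.2 CPM (6.05 to 56.9), below them.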
